A study of Mus musculus with 6 samples.

Results

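Protein S, Gas6 and the TAM receptors Tyro3, Axl and Mertk were followed across 6 islet arrays, 3 from mice labelled as lacking PPARβ in the pancreas and 3 from control littermates. The genes were chosen by symbol, as a ligand and receptor family that was proposed with the differences between these same arrays already known. Their levels and differences below are therefore a description of these arrays, not a test of the choice. The platform annotation gave the 5 genes, of 18193 measured, 8 of the 45037 probe sets examined, 1 each for Pros1 and Mertk and 2 each for Gas6, Axl and Tyro3. All 8 were kept, with no filter on dim values.

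Control mice carried floxed Ppard alleles (PPARbetafl/fl) without Cre. The mice labelled knockout carried the same floxed alleles and a Cre transgene driven by the promoter of Pdx1, a gene switched on in progenitors of the whole pancreas (Pdx1Cre;PPARbetafl/fl). All animals were 8 weeks old, of the mixed background SV 129/C57BL/6, and each array held islets of a different animal. No Cre-positive mice with intact Ppard alleles were analysed here, so effects of the deletion and of the transgene cannot be told apart. The labels name the material beta-cells. The protocol is one for whole islets, in which other endocrine cells, vessels and macrophages are present too. In such bulk RNA, fewer cells of a type and less RNA per cell cannot be told apart. The mean of 9 beta cell markers lay between 11.35 and 11.99 on the log2 scale on the 6 arrays, near the top of the measured range.

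Protein S (encoded by Pros1) and Gas6 are secreted proteins that need vitamin K. Glutamate residues in their N-terminal Gla domain are carboxylated, which lets the proteins bind phosphatidylserine on dying cells and activated platelets. Their C-terminal domains bind and activate the TAM receptor tyrosine kinases, through which phagocytes take up dying cells and dampen cytokine signalling. Gas6 activates all TAM receptors, whereas protein S activates Tyro3 and Mertk but not Axl. Protein S is also an anticoagulant in plasma, where it serves as a cofactor of activated protein C.

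The 250 bases before the transcript start of both ligand genes are shown because Pros1 passed the test between the groups and Gas6 did not. They were taken from the RefSeq table of build GRCm38.p6, in which all 5 genes matched by symbol. The Pros1 window is chr16:62854057-62854306 on the plus strand and the Gas6 window chr8:13494536-13494785 on the minus strand, each written 5′ to 3′ along its gene. Capitals mark the GC box GGGCGG on either strand, and in Pros1 also the run TTCCAGGAA.
Pros1: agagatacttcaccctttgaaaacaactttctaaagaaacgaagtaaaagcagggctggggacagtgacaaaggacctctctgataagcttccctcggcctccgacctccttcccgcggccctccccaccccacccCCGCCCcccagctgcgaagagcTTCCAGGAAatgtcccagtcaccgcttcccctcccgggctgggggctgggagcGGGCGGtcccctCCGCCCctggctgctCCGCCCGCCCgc
Gas6: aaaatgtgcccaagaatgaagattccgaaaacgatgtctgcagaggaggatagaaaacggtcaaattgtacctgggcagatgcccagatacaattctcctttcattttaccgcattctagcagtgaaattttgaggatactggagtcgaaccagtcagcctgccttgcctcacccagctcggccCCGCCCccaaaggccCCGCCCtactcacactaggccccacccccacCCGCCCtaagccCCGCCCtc

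The Pros1 window held 5 GC boxes and the Gas6 window 4, counting overlapping matches, and 32.7% of 32851 such windows in the table held at least 1. The PPAR half-site AGGTCA was searched on both strands, alone and as 2 copies with 1 base between them. Neither form was found in the windows of the 5 genes, and 14.0% of all windows held the half-site and 0.0335% the repeat. The palindrome TTCNNNGAA, the core to which STAT factors bind, was found once, in Pros1, beginning 92 bases before the start, and 7.02% of all windows held it. These are matches of letters, and binding was not measured.

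Ppard, the floxed gene, showed no lower level under the knockout label. The difference of its brighter probe set was 0.49 ± 0.20 (SE) on the log2 scale and did not pass the fit across all probe sets. Its other probe set was higher too, by 0.35 ± 0.11, and did not pass. The groups of that probe set did not overlap, as for 19.0% of all probe sets. The labels do not name the deleted exons, so a probe set outside them would check nothing, and the genotype rests on the labels. In this fit, 404 of 45037 probe sets, or 0.897%, passed an adjusted p of 0.05 (limma, Benjamini-Hochberg). Mean levels of 22 acinar marker genes, which report exocrine tissue carried along with the islets, were 6.92, 10.94 and 11.14 on control arrays 1 to 3. They were 8.68, 5.80 and 5.88 on arrays labelled knockout 1 to 3.

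Pros1 was higher in the arrays labelled knockout, and it was the single member that passed (adjusted p = 0.000852, limma, given as a description). On control arrays 1 to 3 it read 7.83, 7.79 and 7.49 (log2), and on arrays labelled knockout 1 to 3 it read 10.18, 10.07 and 10.16. The groups were separated by a gap of 2.25 between the highest control and the lowest array labelled knockout, while the arrays spanned 0.33 within the controls and 0.10 within the other group. The group means were 7.70 ± 0.18 and 10.14 ± 0.06 (SD, n = 3 each). The difference was 2.43 ± 0.13 (SE, 95% interval 2.14 to 2.73), which is 5.40-fold (4.40 to 6.63). Of all probe sets, 0.273% differed by more in either direction. Among 18193 genes represented by their brightest probe set, Pros1 had rank 40 by size of rise. Its group mean went from percentile 75.0 of all probe sets in controls to percentile 93.3, so the transcript was well within the measured range on both sides.

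**Figure D1:**
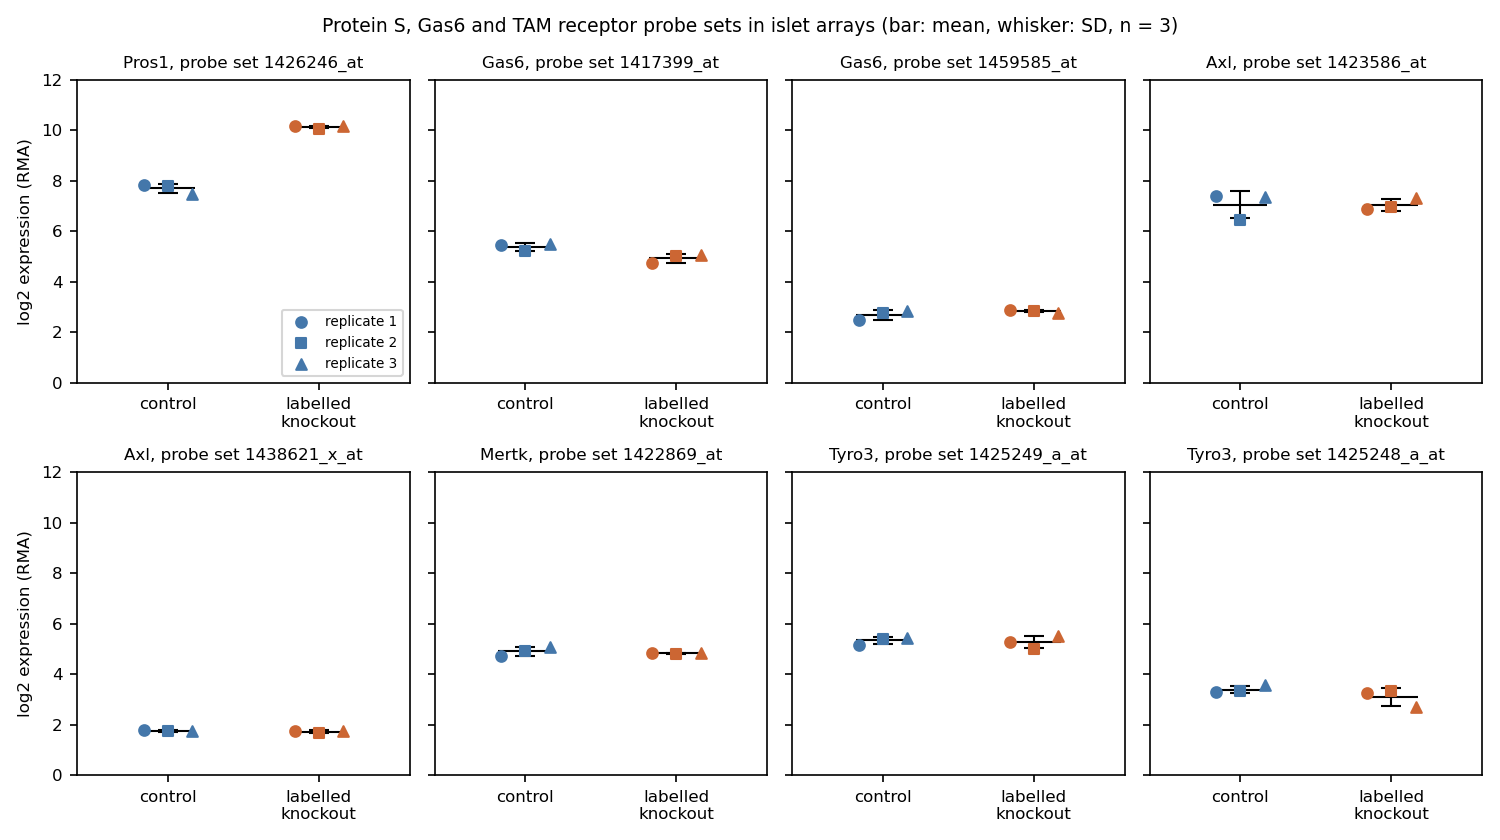
Log2 expression (RMA) of the 8 probe sets of Pros1, Gas6, Axl, Mertk and Tyro3 on 3 control and 3 arrays labelled knockout, with marker shape for the replicate number, bars for means and whiskers for SD. Pros1 lay at 7.49 to 7.83 in controls and at 10.07 to 10.18 in the arrays labelled knockout, whereas every other panel moved by less than 0.50 between group means.

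Counting all probe sets of the family, 1 of 8 passed, against 0.897% of all probe sets, and 2 of 8 had groups that did not overlap, against 19.0% of all probe sets. Because the family was proposed with this contrast in view, nothing is read from either count. Apart from Pros1, the separated probe set was the brighter one of Gas6.

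Gas6, the other ligand, was lower on that probe set but did not pass. It read 5.46, 5.21 and 5.50 (log2) on the controls, in replicate order, against 4.73, 5.01 and 5.05 under the knockout label. The groups were 0.16 apart, about as much as the SD within either group. The means were 5.39 ± 0.16 and 4.93 ± 0.18 (SD, n = 3 each), a difference of -0.46 ± 0.14 (SE, 95% interval -0.79 to -0.13), and 10.8% of all probe sets differed by more in either direction. The level was modest, at percentile 49.3 of all probe sets in controls. The second Gas6 probe set lay at percentile 13.4 and differed the other way, by 0.15 ± 0.13 (95% interval -0.15 to 0.45), with overlapping groups. Averaging both Gas6 probe sets gave -0.15 ± 0.10.

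The differences of the ligands on their brightest probe sets were 2.43 for Pros1, which passed, and -0.46 for Gas6, which did not. Gas6 had its lowest value in the array labelled knockout 1. That array also had the lowest mean of the 9 beta cell markers, at 11.35, against 11.55 and 11.68 in the other arrays of its group and 11.63 to 11.99 in controls. The part of beta cell RNA in the Gas6 values was not tested.

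None of the receptors passed, and all 5 receptor probe sets had 95% intervals that included 0. Axl is the receptor with high affinity for Gas6. Its brighter probe set (percentile 68.1 of all probe sets) read 7.39, 6.44 and 7.36 (log2) on control arrays 1 to 3. Under the knockout label it read 6.88, 6.96 and 7.34, within the range of the controls. The difference was -0.01 ± 0.28 (SE, 95% interval -0.66 to 0.65), so the interval ran from 0.633-fold to 1.57-fold. Axl varied mainly through control 2, and without that array the difference was -0.32 ± 0.17, while without control 1 it was 0.16 ± 0.29. With median centring its sign changed, to 0.047.

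Control 2 was low in stromal and vascular markers as well, though not in these alone. Among controls it was also lowest for the leukocyte (5.56), beta cell (11.63), alpha, delta and PP cell (10.69) and Schwann and neuronal (6.41) marker means. The acinar, duct and hepatocyte marker means were lowest in control 1. The mean of 14 fibroblast, stellate and smooth muscle markers was 6.20, 5.56 and 6.05 for controls, and 6.11, 5.83 and 6.18 for the other group. The mean of 16 endothelial markers was 7.65, 6.94 and 7.23 in controls and 7.42, 7.60 and 7.44 in the other group. With the endothelial mean as a covariate the Axl difference was -0.24 ± 0.25, and the part of the fibroblast markers was not tested. The second Axl probe set, whose suffix marks probes that may also match other sequences, lay at percentile 0.0366 and ranged only from 1.65 to 1.77, at the bottom of the measured range.

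Mertk, the receptor through which macrophages engulf dying cells, read 4.70, 4.93 and 5.08 (log2) on the controls, against 4.83, 4.82 and 4.82 under the knockout label. The latter values all lay inside the control range. The difference was -0.08 ± 0.12 (SE, 95% interval -0.38 to 0.21), on a probe set at percentile 42.8. Within the controls the order of Mertk matched that of the acinar markers, lowest in control 1 and highest in control 3. The dim Gas6 probe set and both Tyro3 probe sets had the same order, so it was not particular to Mertk. With the acinar mean as a covariate the Mertk difference was 0.07 ± 0.15, and it was 0.12 ± 0.14 without controls 2 and 3, so its direction was not settled.

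Tyro3, best known from the nervous system, was measured by a pair of probe sets. The brighter one read 5.17, 5.39 and 5.45 (log2) for controls 1 to 3, and 5.28, 5.01 and 5.50 for the other group. The groups overlapped, and the difference was -0.08 ± 0.16 (95% interval -0.45 to 0.29). The dimmer Tyro3 probe set, at percentile 20.5, read 3.29, 3.32 and 3.56 for controls against 3.26, 3.32 and 2.69 for the other group, a difference of -0.30 ± 0.19. That difference came mainly from the array labelled knockout 3 and was -0.10 without it.

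Pros1 and the receptors were next set beside the markers of cells that could carry them. Of 24 leukocyte and macrophage markers, 19 had higher means in the arrays labelled knockout, 1 rose (Laptm5, a lysosomal membrane protein of blood cells, by 1.34 ± 0.11), and 0 fell. Laptm5 passed on 1 of its 5 probe sets, and the others differed by 0.57, 0.50, 0.40 and -0.04. At an unadjusted p under 0.05, 13 markers were higher (54.2%) and 0 lower, against 8.37% and 5.58% of all genes. The mean of the list was 5.56 to 5.75 in controls and 6.03 to 6.30 in the arrays labelled knockout, without overlap. Means of other lists did not overlap either, among them those of engulfment, the vitamin K cycle and hepatocyte markers. The complement gene C1qc (1.42), the common leukocyte gene Ptprc (1.27) and the mannose receptor gene Mrc1 (1.19) were among the largest differences, whereas the macrophage gene Adgre1 (0.22) and the lysozyme gene Lyz2 (0.02) differed little. Other macrophage genes were flat or lower, among them Itgam (-0.30), C1qa (-0.21), whose product forms a complex with that of C1qc, Cd163 (-0.07), Cx3cr1 (-0.04) and Marco (0.03). Axl and Mertk, both receptors of macrophages, differed by -0.01 and -0.08. With the leukocyte list mean as a covariate these differences were -1.16 ± 0.63 for Axl and 0.19 ± 0.34 for Mertk, and neither passed.

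With the leukocyte list mean of each array as a covariate, the Pros1 difference was 2.23 ± 0.36 (SE) and no longer passed (limma, adjusted p = 0.340, where the range over all other settings was 6.77e-05 to 0.0295). That covariate separates the groups almost as the labels do, and 3 of all 45037 probe sets passed in that fit. In this fit leukocyte RNA and group cannot be told apart. The acinar mean spanned 4.22 among the controls, where Pros1 spanned 0.33, and 2.88 among the arrays labelled knockout, where Pros1 spanned 0.10. With the acinar mean as a covariate the Pros1 difference was 2.36 ± 0.17, and against control 1 alone it was 2.31 ± 0.15, in both cases past the threshold. Means of 7 alpha, delta and PP cell markers also separated the groups, at 10.69 to 10.84 in controls and 10.06 to 10.13 in the arrays labelled knockout. All 7 had lower means, and 2 fell (Ghsr, -1.17 ± 0.12, and Rbp4, -0.73 ± 0.10). At an unadjusted p under 0.05, 6 were lower (85.7%) and 0 higher, against 5.58% and 8.37% of all genes. Of 9 beta cell markers, 7 had lower and 2 higher means, and 1 fell (Slc30a8, -0.82 ± 0.12). The part of these endocrine markers in the Pros1 difference was not tested. Of 16 endothelial markers, 13 had higher means and 3 lower, and none passed. At an unadjusted p under 0.05, 2 were higher (12.5%) and 0 lower, against 8.37% and 5.58% of all genes. Hepatocytes are the main source of plasma protein S. Of 4 hepatocyte markers measured, 1 had a higher mean (Fga, a fibrinogen gene, by 1.75 ± 0.34) and 3 lower (Alb, albumin, by -0.34 ± 0.12). None passed, and 1 of the lower, Ttr, lay at percentile 99.9 of all probe sets. The mean of the 4 was 7.46 to 7.69 in controls and 7.73 to 7.93 in the arrays labelled knockout, without overlap.

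**Figure D2:**
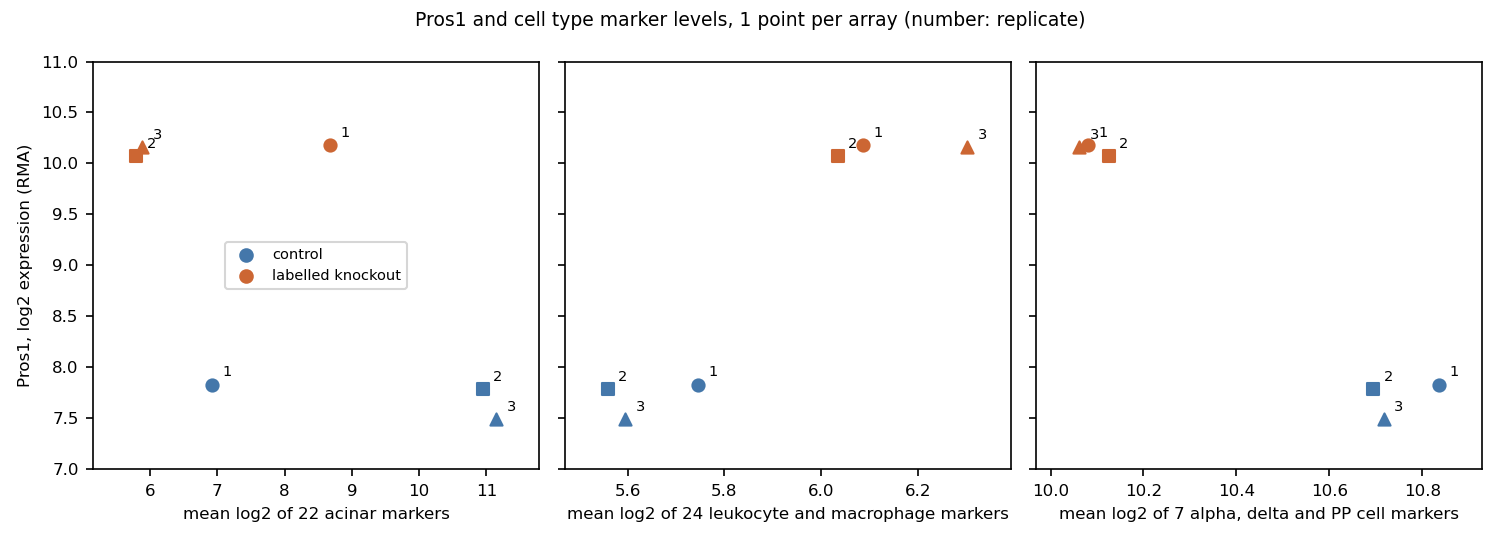
Pros1 log2 expression (RMA) on the vertical axis against the mean log2 level of acinar, leukocyte and macrophage, and alpha, delta and PP cell markers, with 1 point for each array and its replicate number. Pros1 stayed within 0.33 in controls while acinar markers ran from 6.92 to 11.14, whereas the other marker means separated the groups as Pros1 did.

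The genes around the ligands and receptors were followed in 8 lists that cover the vitamin K cycle, other Gla proteins, coagulation control, phosphatidylserine exposure, other phosphatidylserine receptors, engulfment, other TAM ligands with TAM sheddases, and TAM signalling. Of 120 genes other than the members, 110 had a probe set named for them alone here. Of these, 2 rose and 0 fell (limma, adjusted p 0.05), and 108 did not pass. At an unadjusted p under 0.05, 15 were higher (13.6%) and 9 lower (8.18%), against 8.37% and 5.58% of all genes. Among all 18193 genes, 0.852% rose and 0.247% fell. The median difference over the 110 genes was 0.07, against 0.00 over all genes but the members.

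No gene of vitamin K-dependent carboxylation passed. Of 9 genes, 4 had higher and 5 lower means. At an unadjusted p under 0.05, 1 was higher (11.1%) and 1 lower (11.1%), against 8.37% and 5.58% of all genes. Ggcx, the carboxylase that modifies protein S and Gas6, read 8.44, 8.32 and 8.10 for controls against 8.08, 7.80 and 7.92 for the other group, a difference of -0.35 ± 0.14 (adjusted p = 0.346, limma). Calu, whose product calumenin inhibits the carboxylation system, differed by 0.56 ± 0.15 (adjusted p = 0.197, limma). The vitamin K reductase genes Vkorc1 and Vkorc1l1 differed by -0.18 ± 0.11 and 0.07 ± 0.12. Of 12 other Gla protein genes, none passed and 7 had lower means. At an unadjusted p under 0.05, 1 was lower (8.33%) and 0 higher, against 5.58% and 8.37% of all genes. Mgp, the matrix Gla protein that inhibits calcification, was lower by 1.03 on average (from 10.34 ± 0.31 to 9.31 ± 0.31, SD, n = 3, adjusted p = 0.103 in limma). Prrg3, a transmembrane Gla protein gene, differed by -0.36 ± 0.16 on a dim probe set. Among all genes, 0.852% rose and 0.247% fell, so nothing is read from the lack of a call among these 9 and 12 genes. It also turned on the setting, as Mgp passed with trended moderation (adjusted p = 0.0364, limma).

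Genes of coagulation control did not pass either, with 8 of 16 higher and 8 lower. At an unadjusted p under 0.05, 2 were higher (12.5%) and 2 lower (12.5%), against 8.37% and 5.58% of all genes. The 2 genes with the smallest p were both higher. Thbd, which encodes the thrombin receptor thrombomodulin that starts protein C activation, read 7.29, 6.58 and 6.76 for controls against 8.09, 8.00 and 7.84 for the other group. The groups did not overlap, and the difference was 1.10 ± 0.19 (adjusted p = 0.0628, limma). F8, the coagulation factor that activated protein C inactivates with protein S as cofactor, differed by 0.94 ± 0.15 (adjusted p = 0.0514, limma) from a dim control level of 3.92 ± 0.17. Whether either gene passed turned on the setting. F8 passed with median centring, repeated quantile normalization and trended moderation (adjusted p = 0.0371, 0.0379 and 0.0417, limma). Thbd passed with repeated quantile normalization, the log2 floor, trended moderation and without control 1 (adjusted p = 0.0498, 0.0432, 0.0289 and 0.0118, limma). Procr, the endothelial protein C receptor, differed by -0.20 ± 0.34. C4bp, of the same list, differed by -0.41 ± 0.27.

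The 2 pathway genes that rose act on phosphatidylserine and on engulfment. Atp8a1, a flippase that returns phosphatidylserine to the inner leaflet of the membrane, read 9.86, 9.64 and 9.40 for controls against 10.63, 10.58 and 10.63 for the other group. It rose by 0.98 ± 0.14 (adjusted p = 0.0314, limma), and 5 of its 7 probe sets passed. Elmo1, an adaptor that activates Rac during the uptake of dying cells, read 8.28, 8.54 and 8.49 for controls against 9.76, 9.53 and 9.55 for the other group. It rose by 1.18 ± 0.13 (adjusted p = 0.0103, limma), and 2 of its 3 probe sets passed. Both calls were sensitive to single arrays and to added terms. The adjusted p of Elmo1 was 0.0590 without control 3, 0.0572 without knockout 1 and 0.0520 without knockout 2, and that of Atp8a1 was 0.0173 without control 1 and 0.0973 to 0.142 without any other array. With the acinar covariate Elmo1 passed (1.36 ± 0.14, adjusted p = 0.0342) and Atp8a1 did not (0.82 ± 0.17, adjusted p = 0.215), and without controls 2 and 3 neither passed (adjusted p = 0.100 and 0.170, all limma). With the leukocyte covariate, whose list mean was higher in all 3 arrays labelled knockout, the differences were 1.49 ± 0.34 for Elmo1 and 0.64 ± 0.37 for Atp8a1, and neither passed (adjusted p = 0.454 and 0.734, limma). The replicate block also ended both calls (adjusted p = 0.0610 and 0.0781, limma), and the endothelial covariate ended that of Atp8a1 (adjusted p = 0.0775, limma).

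Among 22 other phosphatidylserine bridges and receptors, 14 had higher means and none passed. At an unadjusted p under 0.05, 3 were higher (13.6%) and 1 lower (4.55%), against 8.37% and 5.58% of all genes. Mfge8, which links phosphatidylserine to integrins in parallel with the TAM ligands, read 8.06, 8.25 and 8.05 for controls against 7.42, 7.73 and 7.66 for the other group. That is a difference of -0.51 ± 0.13 (adjusted p = 0.158, limma), in the same direction as Gas6. Calr, which encodes the chaperone and surface signal calreticulin, differed by 0.34 ± 0.11. Timd4, a phosphatidylserine receptor of resident macrophages, was dim (percentile 20.0) and differed by -0.04 ± 0.17. In the phosphatidylserine exposure list, the scramblase gene Ano6 differed by -0.49 ± 0.12 (adjusted p = 0.152, limma). In the engulfment list 12 of 13 genes had higher means, against 9164 of 18188 genes other than the members, and the list median was 0.14. At an unadjusted p under 0.05, 2 were higher (15.4%) and 1 lower (7.69%), against 8.37% and 5.58% of all genes. The lower one was Dock1, at -0.47 ± 0.13 (adjusted p = 0.194, limma). Apart from Elmo1 the smallest p was that of the exchange factor gene Vav1, at 0.70 ± 0.17, on a dim probe set.

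Receptor shedding and signalling genes did not pass, with 4 higher and 2 lower at an unadjusted p under 0.05. Adam17 and Adam10, which encode proteases that cut TAM receptors from the cell surface, differed by 0.40 ± 0.13 and 0.26 ± 0.10, and both were higher in every array labelled knockout than in any control, as 19.0% of all probe sets were separated in either direction. A dim Adam10 probe set differed the other way, by -0.37 ± 0.24, with overlapping groups. Tub, Tulp1 and Lgals3, proposed as further TAM ligands, differed by 0.09, 0.13 and -0.40. Of 20 signalling genes 15 had higher means, with the smallest p for Akt1 (0.54 ± 0.18) and Plcg2 (-0.72 ± 0.24). Socs1 and Socs3, feedback inhibitors of cytokine receptors that TAM signalling can induce, differed by -0.13 ± 0.19 and 0.28 ± 0.23.

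**Figure D3:**
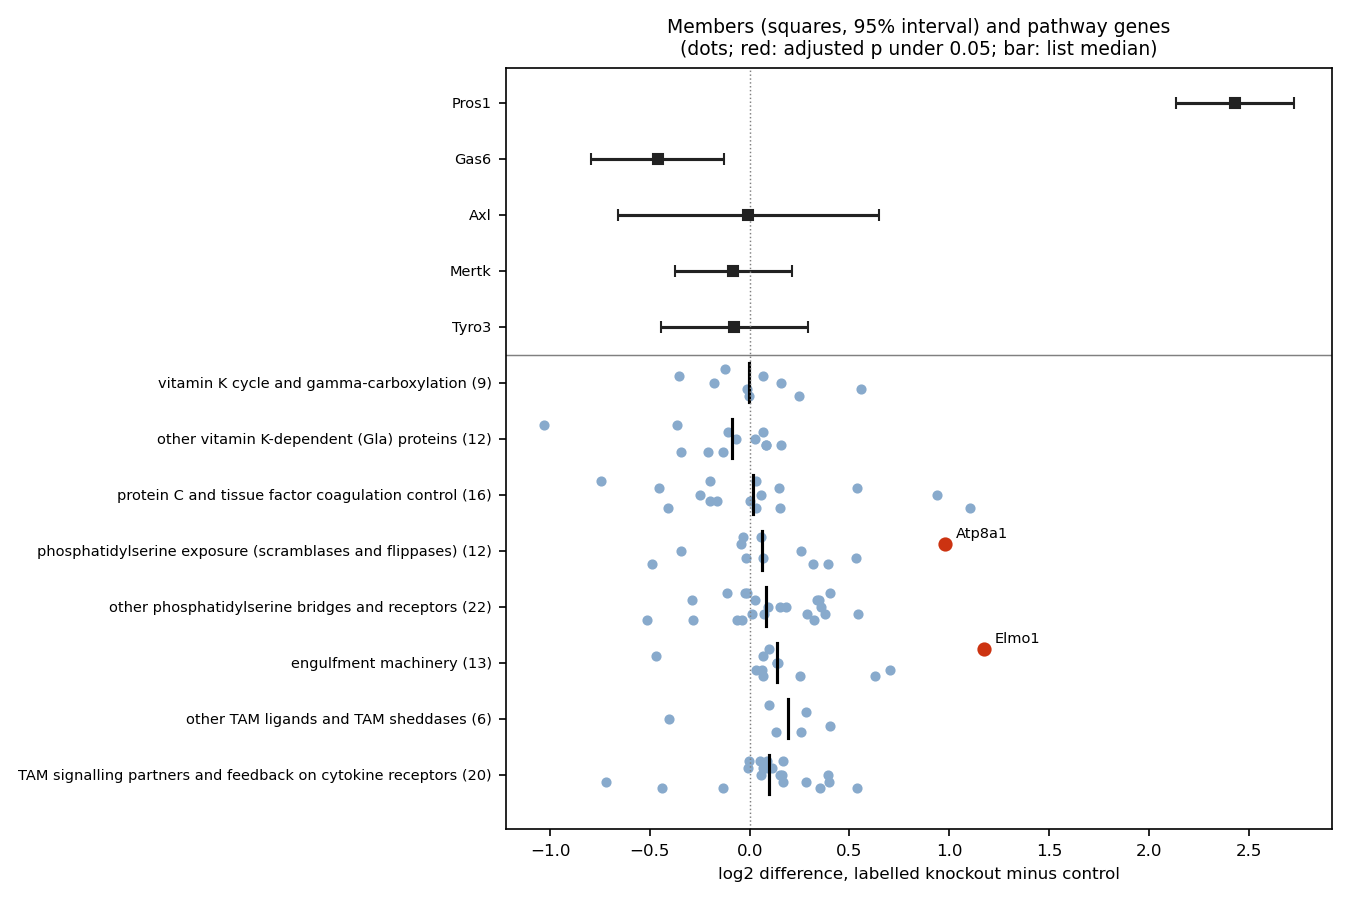
Log2 difference, labelled knockout minus control, of the brightest probe set of each member (squares with 95% intervals) and of each gene in 8 pathway lists (dots, number of genes in brackets, vertical bar for the list median). Pros1 at 2.43 lay beyond all 110 pathway genes, whose differences ran from -1.03 to 1.18, and Atp8a1 and Elmo1 are the ones that passed.

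The pattern of Pros1 over the 6 arrays was most like that of Cftr (Pearson r = 0.999), the chloride channel gene of duct epithelium, then of Sftpd (r = 0.998), a surfactant lectin gene, and of Lgmn (r = 0.998), which encodes the lysosomal protease legumain. These genes share with Pros1 a large difference between the groups, of 3.92, 4.38 and 2.39, which sets most of such an r. Likeness was sought among genes with a mean of at least 5.42 over all arrays. Cftr met that level only through the arrays labelled knockout, with means of 4.20 in controls and 8.12 in the other group. After the group means were removed, r was 0.99, 0.75 and 0.83. Of 9 duct markers, Cftr was the only one that rose, and 6 had lower means. Of 11081 genes compared, 258 reached an r of at least 0.95 with Pros1. For Gas6 that number was 48, for Axl 29, for Mertk 18 and for Tyro3 17. Gas6 was most like Ppp1r3e (r = 0.995), Adam32 (0.990) and Tle2 (0.990). Axl was most like Lst1 (r = 0.990), Gfod1 (0.988) and Pnpla2 (0.985). Mertk was most like Mea1 (r = 0.984), Pear1 (0.982) and Cyc1 (0.980), and Tyro3 most like Srcap (r = 0.992), Plcb2 (0.987) and Zbtb6 (0.978). None of the genes named for Gas6 and the receptors passed. They are the highest of all r compared, over only 6 arrays. No chance level was computed, so nothing is read from these names or numbers.

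None of the measured protein-coding neighbours of Pros1 on chromosome 16 differed by as much. Stx19 (0.52 ± 0.32) and Nsun3 (0.16 ± 0.15) lie on one side, and Epha3 (0.25 ± 0.11) and 4930453N24Rik (-0.23 ± 0.16) on the other, and none passed. The probe sets of Stx19 and Epha3 were dim, at percentiles 26.4 and 29.4 of all probe sets, so little can be read from these genes.

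**Figure D4:**
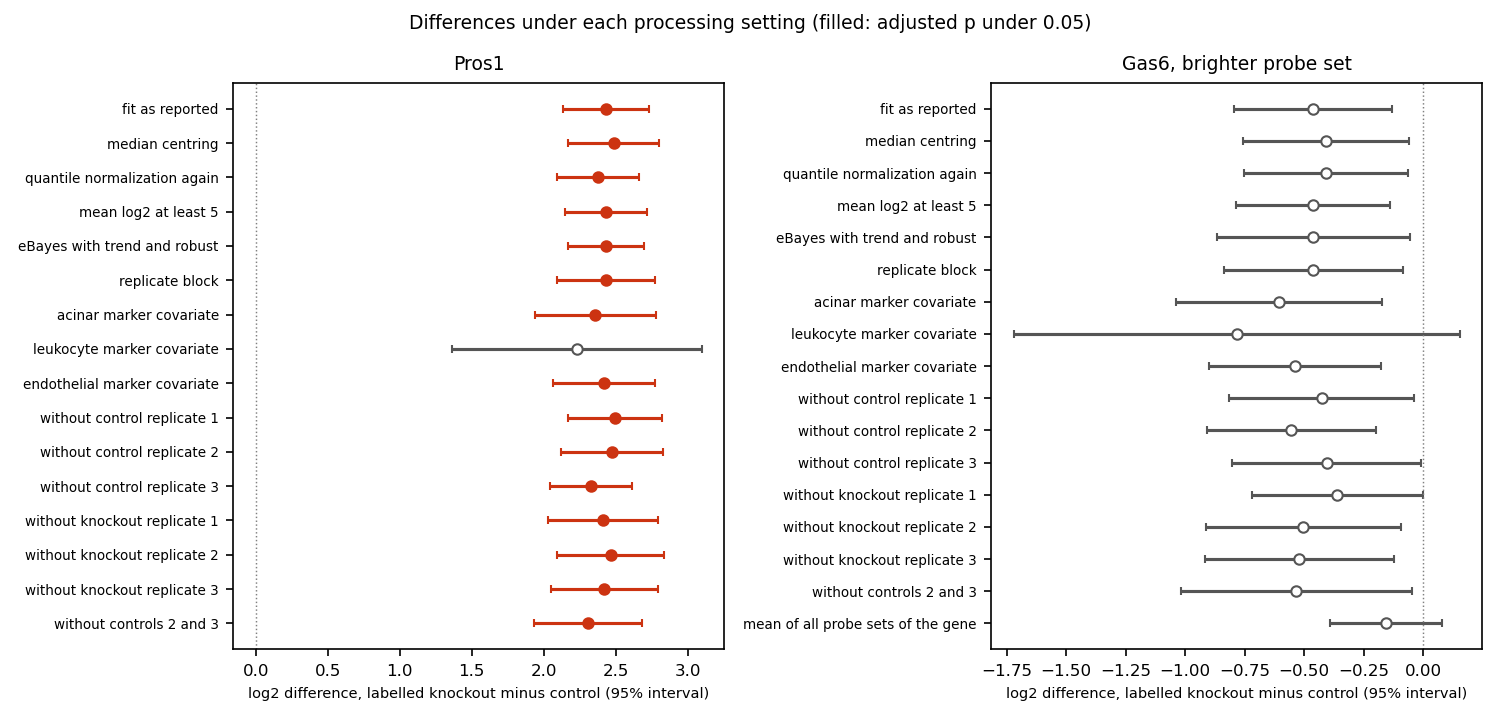
Log2 difference, labelled knockout minus control, with its 95% interval under each processing setting, for Pros1 (left) and the brighter Gas6 probe set (right), filled where the adjusted p was under 0.05. Pros1 stayed between 2.23 and 2.50 and missed the threshold with the leukocyte covariate alone, whereas Gas6 was below 0 in each setting, from -0.78 to -0.15, and passed in none.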

How the data were processed

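Islet RNA of 6 mice was measured on 1-colour Affymetrix arrays, 1 per animal. The authors deposited 1 log2 value for each probe set and array, computed with RMA per the submitters' processing notes, which give no version. RMA normalizes quantiles across arrays and gives no detection call, so percentiles among all probe sets stand in for detectability, and the number of arrays limits the precision. Scan dates and scanner files were not analysed here.

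The table held 45101 probe sets, of which 64 manufacturer controls were left out. Of the other 45037, 34945 had 1 gene symbol in the platform annotation, 932 several and 9160 none. Of those with 1 symbol, 34741 matched RefSeq (GRCm38.p6) by gene identifier and took its symbol. A gene was represented by its probe set with the highest mean over all arrays.

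The fit used lmFit and eBayes of limma 3.58.1 (R 4.3.3), two-sided, with group as the only term and Benjamini-Hochberg adjustment over all probe sets. Differences are labelled knockout minus control with moderated SE and 95% interval. The fit was tested on simulated data. Named genes are all member probe sets, Ppard, in each list the 2 genes with the smallest p, and for each member the genes with the highest r among genes at or above the median level (log2 5.42). Other genes, such as Vkorc1, Procr, Timd4, Socs1, C1qc and the neighbours of Pros1, were named for their role, position or values after these were seen. Members, lists and tests were chosen with earlier results of these data known. The alternatives were other normalization, a floor at log2 5, other variance moderation, the replicate number as a block, marker covariates and left-out arrays.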

Additional observations from a re-analysis of the deposited data

How the results depend on the processing

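The Pros1 difference kept its direction under all 15 alternatives (2.23 to 2.50; 2.33 to 2.50 with 1 array left out) and passed in 14, the exception being the leukocyte covariate (2.23), where 0 member probe sets passed and 1 had an unadjusted p under 0.05. The brighter Gas6 probe set stayed below 0 in all 16 and passed in none. The count of 404 called probe sets was 903 with trended robust moderation, 246 with the replicate block, 126 with the acinar covariate, 3 with the leukocyte covariate, 54 without controls 2 and 3 (a lone control, assumed to vary like the other group) and, with 1 array left out, from 152 (without control 3) to 783 (without control 1). The replicate numbers share only a number (correlations of deviations -0.05, 0.14 and 0.00), and no member's call changed with the block. The 2 called pathway genes became 4 after quantile normalization again, 6 with trended moderation, 1 with the acinar or endothelial covariate, 0 with the block (23 at an unadjusted p under 0.05 in limma), the leukocyte covariate (8) or without controls 2 and 3 (20), and, with 1 array left out, from 0 (without control 3, knockout 1 or knockout 2) to 4 (without control 1). The causes were not tested.

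Signs near 0 reversed. The brighter Axl probe set was at 0.047 with median centring, and with 1 array left out it ran from -0.32 (without control 2) to 0.16 (without control 1). With the leukocyte covariate it was at -1.16, the largest move of any member. The dim Axl probe set was at 0.029 with centring and ran from -0.043 to 0.0072. Mertk was at 0.069 (acinar covariate), 0.19 (leukocyte covariate) and 0.12 (without controls 2 and 3), and ran from -0.18 to 0.0051. Tyro3 was at 0.053 (acinar covariate), 0.021 (endothelial covariate) and 0.089 (without controls 2 and 3), and ran from -0.19 to 0.049, and its dim probe set at 0.64 with the leukocyte covariate, under which Vav1 was at -0.19. Trended moderation also called Ano6 (-0.49), Mgp, Thbd and F8.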
